A study of Mus musculus with 8 samples.

Results

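Gpr39, Fndc1, Itih5 and D0H4S114 were described here as genes whose transcripts were lower in both double knockouts (DKO) of the study, each against its own control. These 4 genes, of 34399 gene symbols in the deposited tables, were chosen by that outcome. The knockout values below are therefore given as a description, without a test, and the tests concern measures that the choice did not use. All 4 passed the low-count filter in both knockout comparisons.

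Cardiac fibroblasts that carried a green fluorescent protein were sorted from the ventricles of mice 4 weeks after TAC (transverse aortic constriction), surgery that narrows the aorta and loads the heart with pressure. The animals were 8 to 10 weeks old at surgery. Every group, the controls included, carried a tamoxifen-dependent Cre (MerCreMer) and a Rosa eGFP reporter switched on by Cre, and received tamoxifen at 100 mg/kg by injection for 2 days and then in chow at 40 mg/kg. Smad2/3 DKO libraries (HK15 and HK16) came from Smad2 fl/fl, Smad3 fl/fl mice with the Cre in Postn, a gene of activated fibroblasts. Postn-Cre control libraries (HK3 and HK4) carried the same Cre, with no floxed allele listed. Tgfbr1/2 DKO libraries (HK2 and HK4) came from mice floxed for both TGF-beta receptors (Tgfbr1 fl/fl, Tgfbr2 fl/fl) with the Cre in Tcf21, a gene of resident fibroblasts. In the Tcf21-Cre control group (HK6 and HK7) the Cre was the same and no floxed allele is listed. Cells were thus taken only where Cre had acted, and the Cre sits in the locus of a fibroblast gene. The HK numbers name libraries within a run, so HK4 appears in both runs for different libraries. Each group had 2 libraries, and the labels do not say whether each came from a single animal, so a p-value here reflects the spread between libraries, which may be technical. In sorted bulk RNA, fewer cells that express a gene and less RNA per cell cannot be told apart.

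TGF-beta binds a receptor complex of Tgfbr1 and Tgfbr2, which phosphorylates Smad2 and Smad3, and these enter the nucleus and act on target genes. In cardiac fibroblasts the pathway is known for inducing matrix genes and the contractile myofibroblast state. Gpr39 is a zinc-sensing G protein-coupled receptor of the ghrelin receptor family. Fndc1 encodes a protein with fibronectin type III domains, first described in rat heart as an activator of G protein signalling (Ags8) that binds the beta and gamma subunits. Itih5 encodes a secreted inter-alpha-trypsin inhibitor heavy chain, a family that binds hyaluronan. D0H4S114, now named Nrep and also known as P311, encodes a small protein that promotes translation of TGF-beta ligands.

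The members lie on 4 chromosomes (GENCODE vM21, GRCm38). Gpr39 (ENSMUSG00000026343) spans 125676995 to 125873862 on chromosome 1, plus strand. Fndc1 (ENSMUSG00000071984) spans 7738569 to 7827302 on chromosome 17, minus strand. Itih5 (ENSMUSG00000025780) spans 10153571 to 10256529 on chromosome 2, plus strand. The merged exons of these 3 genes number 3, 24 and 14 and hold 3015, 9903 and 7900 bases, in the same order. Gpr39 was the only member overlapped by another annotated gene: Lypd1, on the opposite strand, shared 1202 exon bases with it (125872370 to 125873571), which is 39.9% of the Gpr39 exon bases.

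Promoter windows from 250 bases before to 50 bases after the start were taken from RefSeq (GRCm38.p6), which matched 3 of the 4 members. They are shown because the members moved together in both knockouts of a pathway whose Smads bind the letters CAGAC. That motif is in capitals, and each sequence runs 5′ to 3′ on the gene's strand: Gpr39 at chr1:125676746-125677045, plus strand, Fndc1 at chr17:7827253-7827552, minus strand, and Itih5 at chr2:10153293-10153592, plus strand.
Gpr39: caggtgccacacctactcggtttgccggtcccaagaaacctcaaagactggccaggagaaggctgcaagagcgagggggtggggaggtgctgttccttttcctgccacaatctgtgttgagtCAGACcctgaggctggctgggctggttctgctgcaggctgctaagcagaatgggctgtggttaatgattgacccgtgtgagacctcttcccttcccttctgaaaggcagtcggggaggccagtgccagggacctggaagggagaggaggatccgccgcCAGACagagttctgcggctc
Fndc1: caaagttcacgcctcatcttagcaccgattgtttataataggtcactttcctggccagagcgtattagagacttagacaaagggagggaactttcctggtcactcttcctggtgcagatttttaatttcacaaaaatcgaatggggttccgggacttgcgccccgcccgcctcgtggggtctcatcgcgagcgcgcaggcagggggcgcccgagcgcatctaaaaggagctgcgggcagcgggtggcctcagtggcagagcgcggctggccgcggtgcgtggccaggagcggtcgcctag
Itih5: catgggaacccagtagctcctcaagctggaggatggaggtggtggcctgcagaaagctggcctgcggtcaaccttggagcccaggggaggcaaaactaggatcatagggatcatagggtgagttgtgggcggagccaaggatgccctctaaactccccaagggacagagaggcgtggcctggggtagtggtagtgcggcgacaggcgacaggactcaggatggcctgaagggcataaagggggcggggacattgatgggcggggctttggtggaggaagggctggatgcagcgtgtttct

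On both strands, CAGAC occurred 2 times in the Gpr39 window, starting at -128 and at 31 from the transcription start, and in neither of the Fndc1 and Itih5 windows. Of 32851 promoter windows of the same length, 49.6% held the motif at least once and 16.2% at least 2 times. The palindrome GTCTAGAC was in none of the 3 windows and in 0.213% of all windows. TGANTCA, the AP-1 motif, was found 1 time, at -133 in Gpr39, where it overlapped the upstream CAGAC, and in 7.81% of all windows. GGAATG, the TEAD motif, was in none of the 3 and in 14.7% of all windows. The windows held 59.7%, 59.3% and 60.7% G and C for Gpr39, Fndc1 and Itih5, against a median of 52.7%. Fndc1 held 25 CpG dinucleotides and Gpr39 and Itih5 held 8 and 9, against a median of 7. A match of letters is a description and not a binding site.

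Depth ranged over the 8 libraries between 21477742 and 32594649 counts, and 3 counts correspond to 0.092 to 0.14 CPM (the count over the library total, times 1000000). The 2 knockouts were sequenced in separate runs. Of the fibroblast markers, Dcn was at 8965 to 15432 CPM across the 8 libraries, and no gene of any marker list was at 0 in every library. Whole-gene counts cannot check the loss of single floxed exons. In the Smad2/3 comparison Smad2 stood at a log2 fold change of -0.19 (edgeR, adjusted p = 0.747) and Smad3 at -0.26 (0.702), and in the Tgfbr1/2 comparison Tgfbr1 stood at -0.24 (0.533) and Tgfbr2 at 0.25 (0.535). The level of Xist, which marks female cells, was 276 and 75.3 CPM in Smad2/3 DKO libraries, against 3.67 and 2.18 CPM in Postn-Cre control libraries. It was 1.07 and 1.17 CPM in Tgfbr1/2 DKO libraries, against 1.73 and 1.26 CPM in Tcf21-Cre control libraries. Ddx3y, a gene of the Y chromosome, was at 132 and 177 CPM in Smad2/3 DKO libraries, against 164 and 222 CPM in Postn-Cre control libraries (edgeR, log2 fold change -0.38, adjusted p = 0.467), so the DKO libraries held both transcripts. The part of Xist in the members' values was not tested.

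Gpr39, the receptor, had 9.49 and 12.9 CPM in Smad2/3 DKO libraries HK15 and HK16, against 63.4 and 67.0 CPM in Postn-Cre control libraries HK3 and HK4. The DKO mean was 11.2 ± 2.39 CPM and the control mean 65.2 ± 2.54 CPM (SD, n = 2 each). Both DKO libraries lay far below both controls, and the DKO mean was 17.1% of the control mean, with a log2 fold change of -2.60 ± 0.26 (SE). In the other knockout, Gpr39 had 10.8 and 9.38 CPM in Tgfbr1/2 DKO libraries HK2 and HK4, against 49.2 and 32.2 CPM in Tcf21-Cre control libraries HK6 and HK7. Means were 10.1 ± 0.979 CPM in DKO and 40.7 ± 12.0 CPM in control libraries. The groups did not overlap, although the control libraries stood 1.53-fold apart, and the log2 fold change was -1.93 ± 0.24. DKO libraries of both runs thus had nearly the same Gpr39 level in CPM by library total, while their controls differed. That scale is not adjusted between runs.

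Lypd1, which encodes a membrane-anchored protein of the Ly6 family, shares the exon bases given above with Gpr39, and without strand their reads cannot be told apart there. It had 6.53 and 7.06 CPM in Smad2/3 DKO libraries, against 12.0 and 8.35 CPM in Postn-Cre control libraries. Lypd1 stood at 8.57 and 8.65 CPM in Tgfbr1/2 DKO libraries, against 11.2 and 20.1 CPM in Tcf21-Cre control libraries. The log2 fold change of Lypd1 was -0.64 in the Smad2/3 comparison (edgeR, adjusted p = 0.552) and -0.79 in the Tgfbr1/2 comparison (adjusted p = 0.214), and neither passed the threshold of 0.05. Within the Tcf21-Cre control, Postn-Cre control and Tgfbr1/2 DKO groups the library with more Gpr39 was the one with less Lypd1. In Smad2/3 DKO, HK16 had more of both genes than HK15. The part of Lypd1 reads in the Gpr39 values was not tested.

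Fndc1, the G protein signalling activator, had 168 and 154 CPM in Smad2/3 DKO libraries HK15 and HK16, against 390 and 353 CPM in Postn-Cre control libraries HK3 and HK4. Means were 161 ± 9.46 CPM in DKO and 372 ± 26.8 CPM in control libraries, a log2 fold change of -1.26 ± 0.15. In Tgfbr1/2 DKO libraries HK2 and HK4 it had 357 and 364 CPM, against 764 and 882 CPM in Tcf21-Cre control libraries HK6 and HK7. The DKO mean of 361 ± 4.75 CPM stood against 823 ± 83.7 CPM in control libraries, with a log2 fold change of -1.11 ± 0.22. Groups did not overlap in either run. The DKO means were 43.4% and 43.8% of their controls, so the fractions nearly matched. In CPM by library total, not adjusted between runs, the Tgfbr1/2 DKO level was itself close to the Postn-Cre control level.

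Itih5, the hyaluronan-binding heavy chain, had 497 and 481 CPM in Smad2/3 DKO libraries HK15 and HK16, against 875 and 832 CPM in Postn-Cre control libraries HK3 and HK4. Means were 489 ± 11.1 CPM in DKO and 854 ± 30.3 CPM in control libraries, with a log2 fold change of -0.86 ± 0.14. This was the smallest of the 8 knockout differences. In Tgfbr1/2 DKO libraries HK2 and HK4 Itih5 had 380 and 406 CPM, against 939 and 1104 CPM in Tcf21-Cre control libraries HK6 and HK7. Means were 393 ± 18.7 CPM in DKO and 1022 ± 117 CPM in control libraries, with a log2 fold change of -1.30 ± 0.22. Again the groups did not overlap. Itih5 was the only member with the larger fold in the Tgfbr1/2 knockout, at 38.5% of control against 57.3% in the Smad2/3 knockout.

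D0H4S114 (ENSMUSG00000042834), the translation regulator, spans 33437019 to 33464029 on chromosome 18, minus strand, with 3 merged exons of 3908 bases. It had 7.81 and 12.6 CPM in Smad2/3 DKO libraries HK15 and HK16, against 44.7 and 49.8 CPM in Postn-Cre control libraries HK3 and HK4. Means were 10.2 ± 3.41 CPM in DKO and 47.2 ± 3.62 CPM in control libraries, with a log2 fold change of -2.27 ± 0.31. In Tgfbr1/2 DKO libraries HK2 and HK4 it had 69.9 and 66.1 CPM, against 156 and 266 CPM in Tcf21-Cre control libraries HK6 and HK7. The DKO mean of 68.0 ± 2.7 CPM stood against 211 ± 78.2 CPM in control libraries, with a log2 fold change of -1.57 ± 0.28. Groups stayed apart in both runs, but the Tcf21-Cre controls differed 1.71-fold between themselves. Without control HK7 the log2 fold change was -1.05. In CPM by library total, every Tgfbr1/2 DKO library had more D0H4S114 than any Postn-Cre control library.

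**Figure D1:**
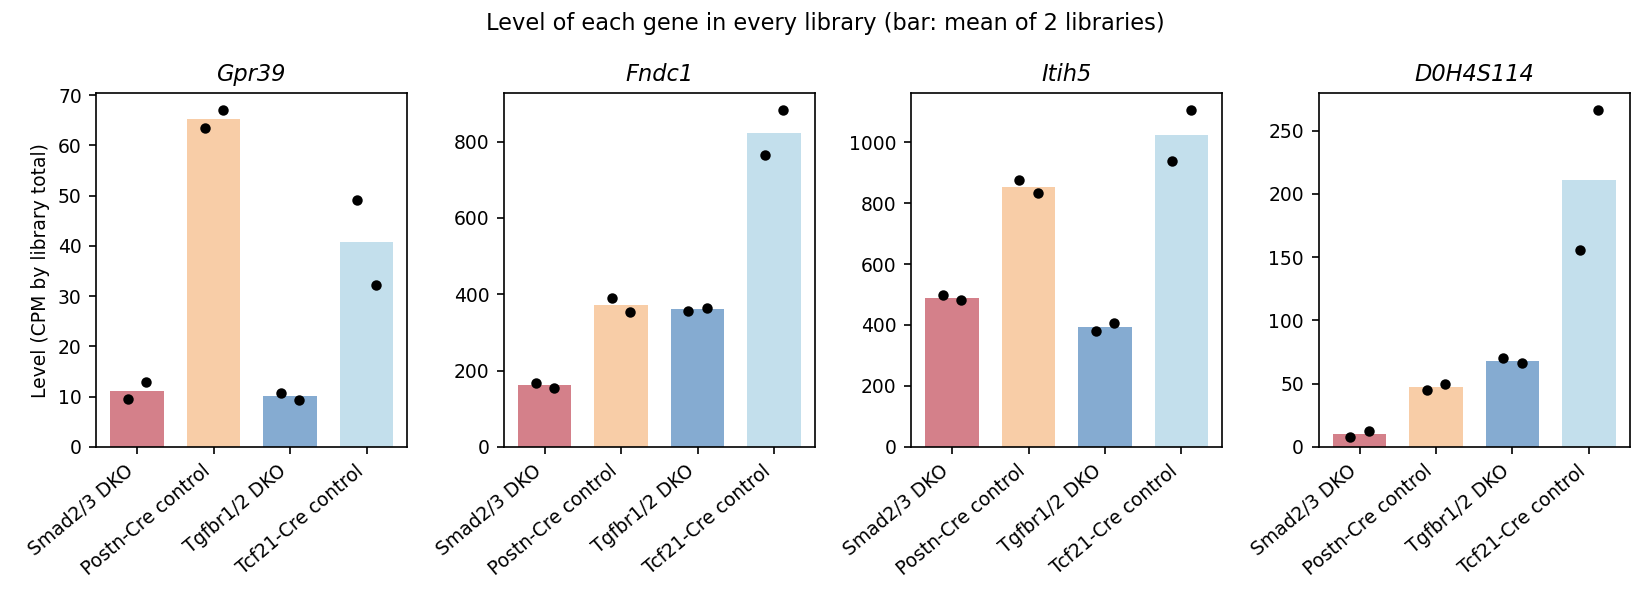
Level of each gene in CPM (vertical axis, from 0) by group, with points for the 2 libraries and bars for their mean. In all 4 panels the points of each DKO group lie below those of its own control, and for Fndc1 and D0H4S114 both Tcf21-Cre groups lie above the corresponding Postn-Cre groups.

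By the fitted fold change with all libraries, the order was Gpr39, D0H4S114, Fndc1, Itih5 in the Smad2/3 knockout, at 6.08-, 4.81-, 2.40- and 1.82-fold lower. It was Gpr39, D0H4S114, Itih5, Fndc1 in the Tgfbr1/2 knockout, at 3.80-, 2.96-, 2.46- and 2.16-fold lower. The ranges of 1 SE around Gpr39 and D0H4S114 overlapped in both knockouts, and those around D0H4S114, Itih5 and Fndc1 in the Tgfbr1/2 knockout. Single libraries changed the order in the Tgfbr1/2 knockout. On the log2 scale, D0H4S114 (-1.93) stood ahead of Gpr39 (-1.64) without Tcf21-Cre control HK6. Without Tcf21-Cre control HK7, D0H4S114 (-1.05) stood behind Itih5 (-1.11). The Smad2/3 effect minus the Tgfbr1/2 effect, on the log2 scale, was -0.69 ± 0.34 for Gpr39, -0.71 ± 0.41 for D0H4S114, -0.16 ± 0.25 for Fndc1 and 0.43 ± 0.26 for Itih5. Since both effects chose the members, these differences carry no test. Over all genes, 1.83% of 17770 tested passed the test of that difference. The authors' deposited table gives log2 fold changes of -2.56 and -1.99 for Gpr39, -1.20 and -1.19 for Fndc1, -0.80 and -1.37 for Itih5, and -2.25 and -1.58 for D0H4S114, in the Smad2/3 and Tgfbr1/2 comparison each.

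Levels per length put the members in a different order. In CPM per kilobase of exon, Itih5 was highest in every group, with means of 61.9 in Smad2/3 DKO, 108 in Postn-Cre control, 49.7 in Tgfbr1/2 DKO and 129 in Tcf21-Cre control libraries. Fndc1 came next in every group, with 16.3, 37.5, 36.4 and 83.1 CPM per kilobase in that group order. The lowest places changed with the run: Gpr39 (3.71 and 21.6) stood above D0H4S114 (2.62 and 12.1) in Smad2/3 DKO and Postn-Cre control libraries. In Tgfbr1/2 DKO and Tcf21-Cre control libraries D0H4S114 (17.4 and 54.0) stood above Gpr39 (3.34 and 13.5). In Smad2/3 DKO the Gpr39 libraries (3.15 and 4.27 CPM per kilobase) and those of D0H4S114 (2.00 and 3.23) overlapped. Within each library Gpr39 stood above D0H4S114, at 3.15 against 2.00 in HK15 and 4.27 against 3.23 in HK16. No other neighbours in a group overlapped. By mean CPM, not divided by length, Itih5 and Fndc1 lay above at least 95.2% of the detected genes in every group. Gpr39 and D0H4S114 lay above 72.7% and 71.7% in Smad2/3 DKO and above 67.1% and 89.5% in Tgfbr1/2 DKO libraries, also by mean CPM. In Postn-Cre and Tcf21-Cre controls Gpr39 lay above 89.4% and 83.9%, and D0H4S114 above 86.9% and 96.9%.

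Across the genome, 204 of 15760 tested genes (1.29%) passed the threshold in the Smad2/3 comparison, 133 of them lower (0.844%), and 656 of 16658 (3.94%) in the Tgfbr1/2 comparison, 218 of them lower (1.31%). Non-overlap with lower DKO libraries, seen for all 4 members in each comparison, was found for 18.9% and 29.3% of tested genes, and in both for 736 of 15017 genes (4.9%). In all, 6 genes, or 0.04% of the 15017 tested in both, passed the threshold as lower in both, and the members were 4 of these 6. Another 5 genes (0.0333%) were higher in both and 15 (0.0999%) went opposite ways. Ranked by log2 fold change from the lowest, Gpr39 stood at 161 and 219, D0H4S114 at 242 and 400, Fndc1 at 870 and 945, and Itih5 at 1572 and 658 in the Smad2/3 and Tgfbr1/2 comparison. Since the rule used these contrasts, nothing further is read from the counts.

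The other 2 genes lower in both were Col4a3 and Tpm3-rs7. Col4a3, a chain of basement membrane collagen IV, had 93.9 and 127 CPM in Smad2/3 DKO libraries, against 329 and 290 CPM in Postn-Cre control libraries. In the other run Col4a3 had 35.4 and 26.2 CPM in Tgfbr1/2 DKO libraries, against 263 and 166 CPM in Tcf21-Cre control libraries. The log2 fold change of Col4a3 was -1.55 in the Smad2/3 comparison (edgeR, adjusted p = 0.00329) and -2.71 in the Tgfbr1/2 comparison (adjusted p = 0.000336), and the call held without any 1 library. Tpm3-rs7, a sequence related to tropomyosin 3 whose reads may be shared with its parent gene, was at most 4.27 CPM in any library, with a log2 fold change of -3.94 (adjusted p = 0.0458) in the Smad2/3 and of -5.43 (adjusted p = 0.0133) in the Tgfbr1/2 comparison. Its call in the Smad2/3 comparison was lost without Postn-Cre control HK3 or without either DKO library, with adjusted p up to 0.145.

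Just outside the threshold lay 3 further genes. Snai2, a transcription factor of mesenchymal transition, had -1.20 (adjusted p = 0.0507) and -0.85 (adjusted p = 0.0506) in the Smad2/3 and Tgfbr1/2 comparison. Asah1, the lysosomal acid ceramidase, had -0.83 (adjusted p = 0.0636) and -0.71 (adjusted p = 0.0535). Lrrc55, an auxiliary subunit of potassium channels, had -2.29 (adjusted p = 0.0646) and -1.15 (adjusted p = 0.0211). Just inside it lay Tpm3-rs7, with the values given above.

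**Figure D2:**
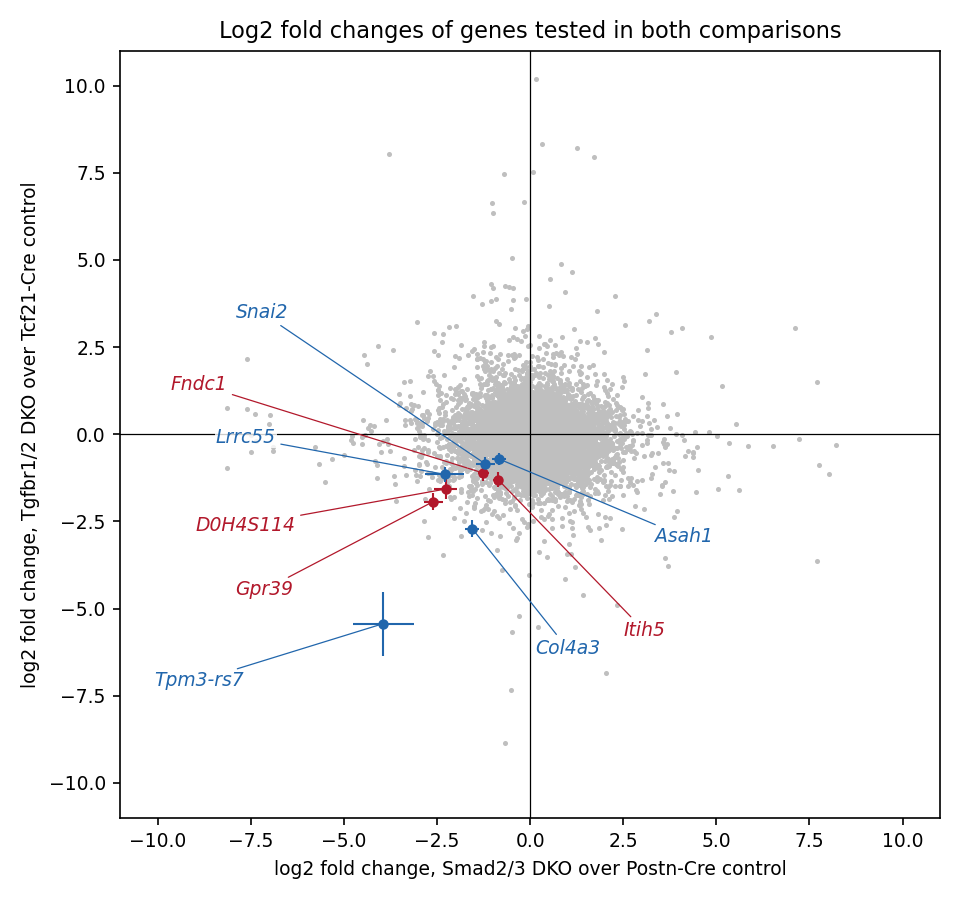
Log2 fold change of each of the 15017 genes tested in both comparisons, Smad2/3 DKO over Postn-Cre control on the horizontal and Tgfbr1/2 DKO over Tcf21-Cre control on the vertical axis, with SE bars on named genes. The 4 members (red) and 5 other genes (blue), of which Col4a3 and Tpm3-rs7 were called in both comparisons and Snai2, Asah1 and Lrrc55 were not, lie in the lower left, and of these Tpm3-rs7, at -3.94 and -5.43, stands farthest out.

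Whether Fndc1, Itih5 and D0H4S114 passed the threshold in both comparisons depended on single libraries. The rule used these contrasts, so this is a limit of the list and not a test of the members. The signs of the fold changes, chosen as lower by the rule, did not move. Over all single omissions Gpr39 lay between -2.85 and -2.39 in the Smad2/3 and between -2.15 and -1.64 in the Tgfbr1/2 comparison. D0H4S114 lay between -2.67 and -1.95 and between -1.93 and -1.05, in the same order.

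**Figure D3:**
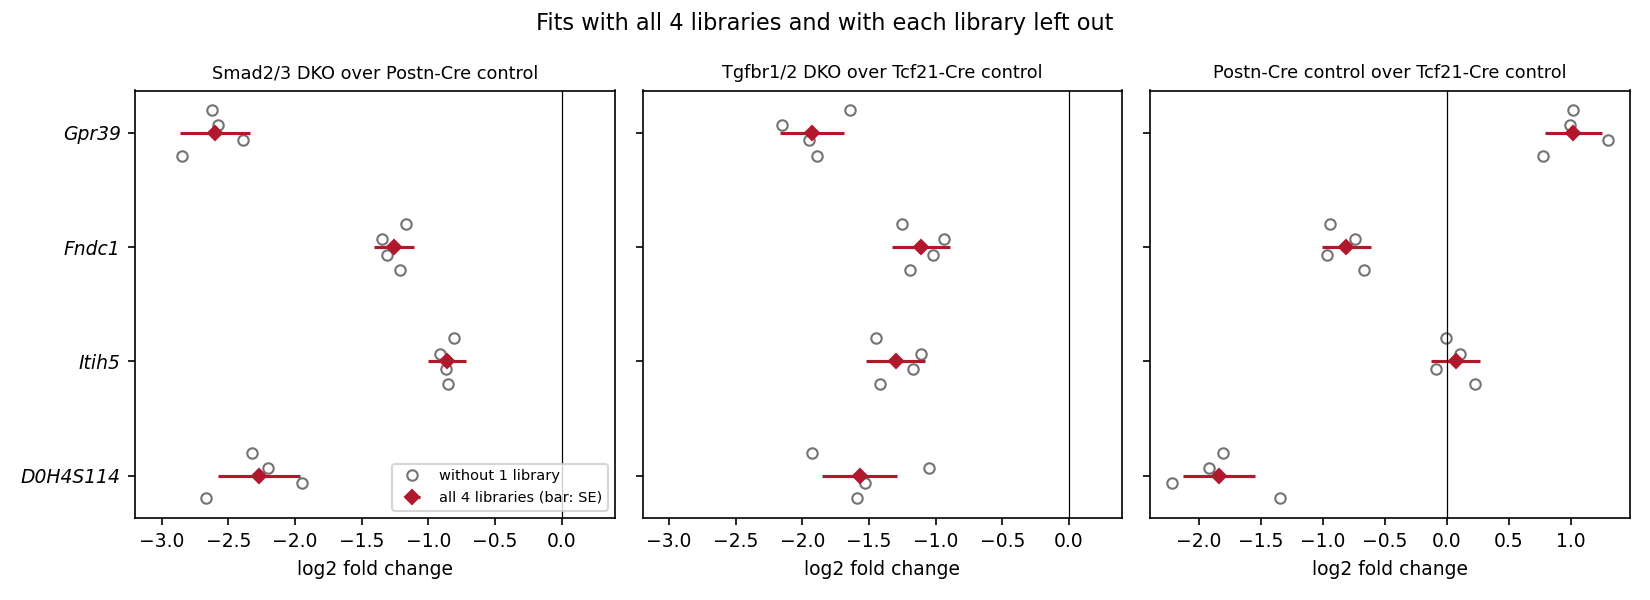
Log2 fold change of each member (horizontal axis) in the 3 comparisons with all 4 libraries (diamond, bar: SE) and with each library left out (open circles). Every value lies below 0 in both knockout comparisons, whereas in the control comparison the Itih5 values run from -0.09 to 0.23.

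The Postn-Cre and Tcf21-Cre controls were then compared, a contrast that did not choose the members. Run, Cre driver and sorted lineage change together in it and cannot be told apart. In this contrast 5611 of 16568 genes (33.9%) passed the threshold, 16.6% higher and 17.3% lower in Postn-Cre controls, so 3 of 4 members passing is to be read against a high background. D0H4S114 was lower in Postn-Cre controls, at 47.2 ± 3.62 CPM in Postn-Cre and 211 ± 78.2 CPM in Tcf21-Cre control libraries (log2 fold change -1.84 ± 0.29, adjusted p = 0.00408, edgeR, n = 2 each). That call held without any 1 library, with adjusted p up to 0.00683. Fndc1 was also lower in Postn-Cre controls, at 45.1% of the Tcf21-Cre mean (-0.81 ± 0.20, adjusted p = 0.0181), but the adjusted p was 0.0893 without Postn-Cre control HK4. Gpr39 was higher in Postn-Cre controls, at 160% of the Tcf21-Cre mean (1.02 ± 0.23, adjusted p = 0.0143), and its adjusted p was 0.0754 without Tcf21-Cre control HK7. Itih5 did not pass (0.07 ± 0.20, adjusted p = 0.808), and its sign depended on scaling. Its mean CPM in Postn-Cre controls was 83.6% of that in Tcf21-Cre controls, while the fitted value was above 0. On the log2 scale, the fitted values of the other 3 members also lay higher than their ratios of mean CPM, with the same sign.

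The relatives and partners of each member were followed in lists. Over all tested genes the median log2 fold change was 0.01 in the Smad2/3 and -0.01 in the Tgfbr1/2 comparison, and 0.451% and 2.63% of genes were higher. Of the ghrelin receptor family only Ghsr was tested, at -0.20 (adjusted p = 0.945) in the Smad2/3 and 0.22 (adjusted p = 0.867) in the Tgfbr1/2 comparison, and the family member Nmur2 was at 0 in every library. None of 14 genes of G protein alpha subunits, phospholipase C and inositol trisphosphate receptors passed in the Smad2/3 comparison (median -0.22). In the Tgfbr1/2 comparison 1 of 15 was lower (median 0.05). That gene was Plcb4, a phospholipase C that acts downstream of Gq-coupled receptors (-0.82, adjusted p = 0.0303), and its call was lost without any 1 of the 4 libraries, with adjusted p up to 0.176. Zinc transporters and metallothioneins had no call among 22 tested in the Smad2/3 comparison (median -0.16). Of 23 in the Tgfbr1/2 comparison 2 were higher (median 0.15): the zinc-binding metallothionein Mt2 (1.37, adjusted p = 0.0122) and the zinc importer Slc39a14 (1.03, adjusted p = 0.0263). Mt2 lost its call without Tcf21-Cre control HK7 or Tgfbr1/2 DKO HK4, and Slc39a14 without either control or without Tgfbr1/2 DKO HK4.

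Other genes of the Fndc family, listed with Abi3bp, had no call in either comparison, among 6 and 7 tested, with medians of -0.32 and -0.01. Fndc3b, the most abundant, had 622 and 573 CPM in Smad2/3 DKO libraries, against 765 and 811 CPM in Postn-Cre control libraries (-0.46, adjusted p = 0.152). It stood at 0.03 (adjusted p = 0.951) in the Tgfbr1/2 comparison, and Fndc3a at -0.18 and -0.01 in the 2 comparisons. G protein beta and gamma subunits and other Ags genes had no call among 17 in the Smad2/3 comparison (median -0.20). Of 19 in the Tgfbr1/2 comparison 1 was higher (median -0.05), the gamma subunit Gngt2 at 10.5 and 7.69 CPM in DKO, against 2.68 and 3.23 CPM in control libraries (1.69, adjusted p = 0.0236). Its call was lost in 3 of the 4 fits that left out a library.

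The inter-alpha-trypsin inhibitor family beside Itih5 had no call among 4 and 3 tested genes, with medians of 0.21 and 0.31. Itih2, another heavy chain, had 53.9 and 51.8 CPM in Smad2/3 DKO libraries, against 45.1 and 37.8 CPM in Postn-Cre control libraries (0.29, adjusted p = 0.637). In Tgfbr1/2 DKO libraries Itih2 had 14.8 and 19.6 CPM, against 23.1 and 34.3 CPM in Tcf21-Cre control libraries (-0.66, adjusted p = 0.234). Of 19 hyaluronan genes, 1 was lower in the Smad2/3 comparison (median -0.42), Vcan, the hyaluronan-binding proteoglycan versican (-0.71, adjusted p = 0.0318), a call lost without either DKO library. The Tgfbr1/2 comparison had 2 of 19 higher and 1 lower (median 0.23). Lyve1, a hyaluronan receptor of lymphatic cells and some macrophages, was among the higher (1.89, adjusted p = 0.0212), and Hapln1, a hyaluronan link protein, was the lower one (-2.49, adjusted p = 0.0313). Both were under 10 CPM in every library, and their calls were lost without 2 and 3 of the libraries in turn.

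The TGF-beta genes beside D0H4S114 gave few calls. The list of ligands and latency proteins also held the translation initiation factor Eif3b. Of the ligands and latency proteins, 1 of 9 was lower in the Smad2/3 comparison (median -0.30): Ltbp1, which stores latent TGF-beta in the matrix, had 237 and 239 CPM in DKO, against 440 and 450 CPM in control libraries (-0.96, adjusted p = 0.00812). Without Smad2/3 DKO HK15 its adjusted p was 0.0753. Ltbp1 stood at 0.22 (adjusted p = 0.603) in the Tgfbr1/2 comparison, where 1 of 10 genes was higher (median 0.12), Lrrc33, which presents latent TGF-beta on macrophages (2.58, adjusted p = 0.0122, and 0.0521 without Tcf21-Cre control HK7). Of 15 receptors, Smads and Ski repressors none passed in the Smad2/3 comparison (median -0.09). Eng, a TGF-beta co-receptor, was the 1 higher gene in the Tgfbr1/2 comparison (0.78, adjusted p = 0.0423, median of the list -0.02), and the call was lost without any 1 library.

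Of 22 TGF-beta and Smad3 target genes, 6 were lower and none higher in the Smad2/3 comparison (median -0.29). The Tgfbr1/2 comparison had 1 lower and 3 higher (median -0.22). Col3a1 and Col1a2, fibrillar collagen chains, were lower in the Smad2/3 comparison (-2.15, adjusted p = 8.05e-05, and -1.44, adjusted p = 0.0011), and stood at -0.28 (adjusted p = 0.658) and -0.39 (adjusted p = 0.517) in the Tgfbr1/2 comparison. Angptl4, a secreted inhibitor of lipoprotein lipase, was lower in the Smad2/3 comparison (-2.17, adjusted p = 0.0156) and higher in the Tgfbr1/2 comparison (3.08, adjusted p = 7.29e-05). The lower call of Angptl4 was lost without either Smad2/3 DKO library, with adjusted p up to 0.0696.

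**Figure D4:**
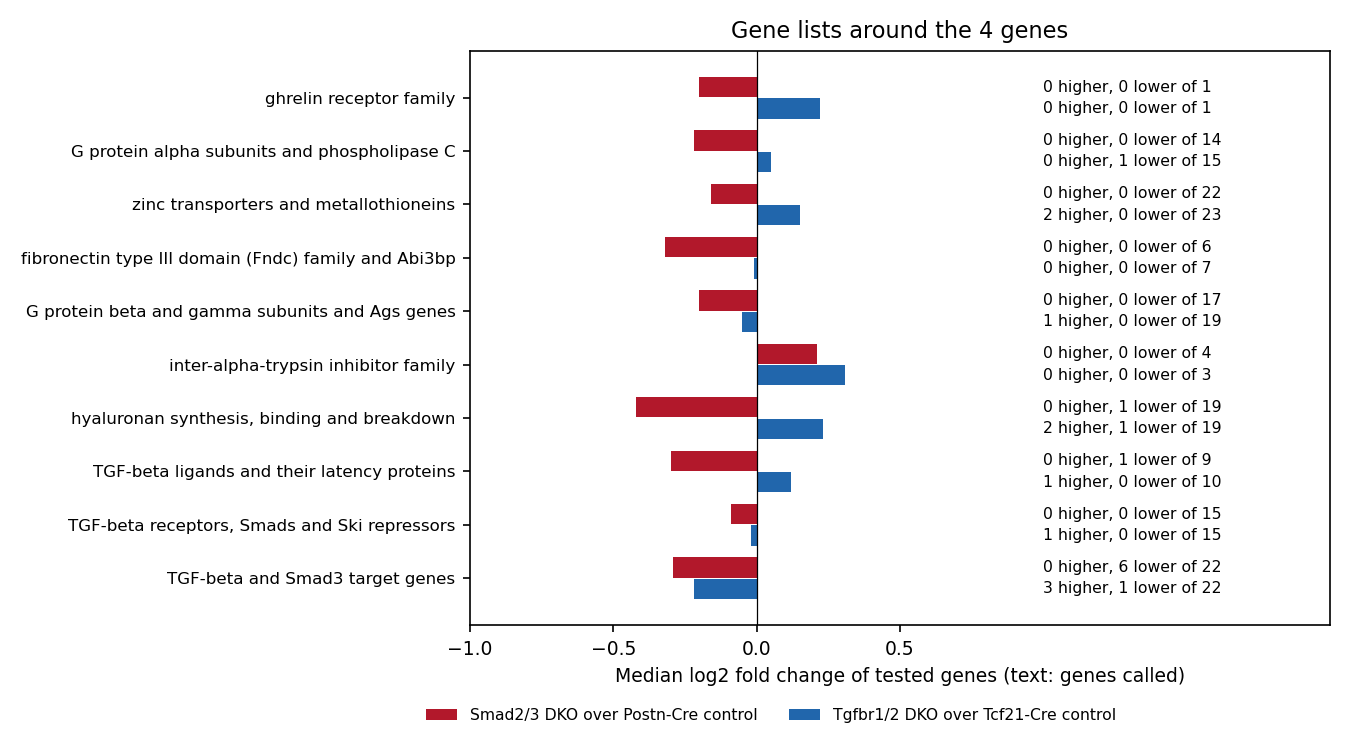
Median log2 fold change of the tested genes of each pathway list (bars) in the Smad2/3 (red) and Tgfbr1/2 (blue) comparison, with the number of genes called in each direction at the right. Medians lie between -0.42 and 0.31, and the TGF-beta target list holds 6 genes called lower in the Smad2/3 comparison and 1 in the Tgfbr1/2 comparison.

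Markers of other cells differed between some groups. Summed over 13 macrophage and leukocyte markers, the level was 212 to 228 CPM in Tgfbr1/2 DKO, against 61.3 to 86.6 CPM in Tcf21-Cre control libraries, and 4 of 13 were higher (median 1.61). In Smad2/3 DKO it was 32.5 to 37.2 CPM, against 36.2 to 38.3 CPM in Postn-Cre control libraries, with 0 of 7 tested called (median -0.35). Epicardial markers summed to 429 to 445 CPM in Tgfbr1/2 DKO, against 46.3 to 84.0 CPM in Tcf21-Cre control libraries, mostly Aldh1a2 (387 and 420 CPM in DKO, against 49.3 and 16.5 CPM in control libraries), and 2 of 6 were higher. In Smad2/3 DKO they summed to 36.6 to 42.8 CPM, against 61.4 to 70.2 CPM in Postn-Cre control libraries, with 0 of 4 called. Endothelial markers summed to 165 to 267 CPM in Smad2/3 DKO, against 273 to 555 CPM in Postn-Cre control libraries (0 of 13 called, median -1.29). Endothelial sums in Tgfbr1/2 DKO were 549 to 570 CPM, against 431 to 474 CPM in Tcf21-Cre control libraries, with 1 of 13 higher. That gene was Eng, the co-receptor given above. Pericyte and smooth muscle markers summed to 834 to 1094 CPM in Smad2/3 DKO, against 895 to 1603 CPM in Postn-Cre control libraries. Of the 13 tested 1 was lower, 10 were fitted below 0 and the median was -0.20. Their sums in Tgfbr1/2 DKO were 1073 to 1115 CPM, against 747 to 1168 CPM in Tcf21-Cre control libraries. There 0 of 13 were called, 10 were fitted above 0 and the median was 0.39. Cardiomyocyte markers summed to 713 to 764 CPM in Smad2/3 DKO, against 672 to 721 CPM in Postn-Cre control libraries. Most of that sum was Atp2a2 (634 and 582 CPM in DKO, against 451 and 534 CPM in control libraries). Of the 11 tested 0 were called, 9 were fitted below 0 and the median was -1.11. Cardiomyocyte sums in Tgfbr1/2 DKO were 582 to 676 CPM, against 576 to 587 CPM in Tcf21-Cre control libraries (0 of 12 called, median -0.14). Fibroblast markers summed to 18818 to 19136 CPM in Smad2/3 DKO, against 23089 to 26687 CPM in Postn-Cre control libraries, with 3 of 12 lower. Among those lower were Col3a1 (mean 1107 CPM in DKO, against 4719 CPM in control libraries) and Col1a2 (1054 against 2750 CPM). Both are also in the TGF-beta target list above. Dcn stood at 0.03 (edgeR, adjusted p = 0.961), and 6 of the 12 were fitted above 0. In Tgfbr1/2 DKO the fibroblast markers summed to 37086 to 37549 CPM, against 39890 to 49117 CPM in Tcf21-Cre control libraries, with 0 of 12 called. Schwann cell markers summed to 44.1 to 53.5 CPM in Smad2/3 DKO, against 35.6 to 37.2 CPM in Postn-Cre control libraries (0 of 6 called, median 0.27). Their sums in Tgfbr1/2 DKO were 18.0 to 23.9 CPM, against 24.4 to 47.8 CPM in Tcf21-Cre control libraries, with 0 of 6 called, all 6 fitted below 0 and a median of -0.88. The part of these markers in the values of the 4 members was not tested.

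The genes most like each member were found by Pearson's r of log2(CPM + 1) over the 8 libraries after centring each run, among 14091 genes with a mean of at least 1 CPM. These r values share the libraries and the knockout contrasts that chose the members, and are descriptions. Gpr39 was most like Lats2, a kinase of the Hippo pathway (r = 0.993), the transcription factor Sox5 (r = 0.993) and Snai2 (r = 0.991). For Fndc1 they included Tpm3-rs7 (r = 0.986) and Fam171b (r = 0.978). For Itih5 they were the secreted protein gene C1qtnf2 (r = 0.990), the palmitoyltransferase gene Zdhhc15 (r = 0.986) and Ccpg1 (r = 0.984). For D0H4S114 they were the growth factor Igf1 (r = 0.988), the lysophosphatidic acid receptor Lpar1 (r = 0.980) and the choline transporter Slc44a1 (r = 0.980). Between the members r ran from 0.889 to 0.965. Likeness in pattern did not mean likeness in size: Lats2 had 159 and 160 CPM in Smad2/3 DKO libraries, against 234 and 237 CPM in Postn-Cre control libraries, a log2 fold change of -0.62 (adjusted p = 0.0828), far less than that of Gpr39.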

How the data were processed

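RNA from sorted cells was amplified with the NuGEN Ovation kit, made into libraries with Nextera XT and sequenced on a HiSeq2500 with no step described that marks strand, per the labels' protocols. Expected counts per Ensembl identifier, called raw in the headers, were deposited by the authors in 2 tables of 38087 entries. The build was mm10, per the submitters' processing notes. Aligner and counter names were not given in the sources used here. Per the file headers, the authors' tables also hold log2 values of each library, log2 fold changes, a fold ratio and a signed score.

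Here entries of the same symbol were summed (278 symbols from 3966 entries), and expected counts were rounded for the fits (12.51% of values above 0 were whole). CPM is the unrounded count over the library total, times 1000000, and CPM per kilobase divides it by merged exon length (GENCODE vM21, which held 95.3% of identifiers). The 4 libraries of a comparison were fitted on their own by edgeR 4.0.16 (R 4.3.3, TMM, filterByExpr, robust quasi-likelihood F test, two-sided), with Benjamini-Hochberg adjustment over all tested genes and a threshold of 0.05. Every adjusted p is from these fits, and the SE of a fold change was derived from F. Called means an adjusted p below 0.05. The difference between effects was fitted on all 8 libraries. Alternatives were DESeq2 1.42.0, RLE size factors, no low-count filter, no robust estimation, unsummed entries, a fit of all 8 libraries and leaving out each library. Leaving-one-out for the difference and for genes lower in both was an alternative chosen after seeing the data. Scripts were tested on simulated counts.

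Named genes were the members, genes overlapping them, up to 3 called genes of each pathway list (or the 2 most abundant), the 3 genes most like each member, the 5 other genes with a fold change below 0 in both and the smallest larger adjusted p, the targeted genes and abundant markers. A gene that this rule names is not reported here. Xist and Ddx3y were chosen after the data were seen. The members and lists were chosen with earlier results of these data known. The level of 3 counts covers counting error only, while SD and SE also hold the spread between libraries.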

Additional observations from a re-analysis of the deposited data

Results flagged for a closer look

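For 8 genes named with the 4 members, the Smad2/3 and Tgfbr1/2 effects differed in the test of the difference itself (edgeR, all 8 libraries, adjusted p below 0.05), as did 1.83% of 17770 genes. Each value is the Smad2/3 effect minus the Tgfbr1/2 effect on the log2 scale. Run and Cre driver change with the targeted genes and cannot be told apart from them. Angptl4 differed by -5.25 (adjusted p = 3.13e-05) and Aldh1a2, an enzyme of retinoic acid synthesis, by -5.04 (adjusted p = 0.00143), and both kept the call without any 1 of the 8 libraries. For Eng the value was -1.71 (adjusted p = 0.0149, and 0.0606 without Smad2/3 DKO HK16). Col3a1 differed by -1.88 (adjusted p = 0.0314), a call lost in 4 of 8 fits that left out a library. Mt2 differed by -1.53 (adjusted p = 0.0443), lost in 5 of the 8. Ltbp1 at -1.19 (adjusted p = 0.0411) and Lrrc33 at -5.68 (adjusted p = 0.0395) each lost the call in 7 of the 8. For Lrrc33 the Smad2/3 DKO libraries, at 0.0783 and 0.186 CPM, lay around the level of 3 counts (0.118 and 0.14 CPM), and the gene was not tested in that comparison alone, so the size of its difference is not fixed by these data. Xist differed by 6.18 (adjusted p = 0.00476) and kept the call without any 1 of the 8 libraries, while Ddx3y stood at 0.12 (adjusted p = 0.908). Groups of 2 libraries were too small for a search for single outlying libraries.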

How the results depend on the processing

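The 4 members kept their sign in both knockout comparisons under every alternative run. They were chosen as lower in these contrasts, so a kept sign is a description and not a test. Genes called in the Smad2/3 comparison numbered 204, against 747 with DESeq2, 819 without the low-count filter, and 105 (without DKO HK15) to 297 without 1 library. In the Tgfbr1/2 comparison 656 compared with 1069 by DESeq2, 1233 without the filter, 299 in a fit of all 8 libraries, and 271 (without DKO HK4) to 484 without 1 library, with 336 without DKO HK2 and 365 without control HK7. Between controls 5611 compared with 3176 (without Tcf21-Cre control HK7) to 6800. Genes lower in both numbered 6, against 17 with DESeq2, 23 without the filter and 4 in the fit of all 8 libraries. Itih5 was not among those called in the fit of all 8 libraries. The number of genes lower in both also moved in some fits that left out 1 library. Without 1 library Fndc1 ran from -1.35 to -1.17 and from -1.25 to -0.94 in the Smad2/3 and Tgfbr1/2 comparisons, and Itih5 from -0.91 to -0.81 and from -1.45 to -1.11. For Gpr39 and D0H4S114 these ranges were -2.85 to -2.39 and -2.15 to -1.64, and -2.67 to -1.95 and -1.93 to -1.05. Between controls they were 0.78 to 1.30 for Gpr39, -0.97 to -0.67 for Fndc1, -0.09 to 0.23 for Itih5 and -2.22 to -1.35 for D0H4S114. Gpr39 at 0.78 without Tcf21-Cre control HK7 and Fndc1 at -0.74 without Postn-Cre control HK4 were past the threshold no longer, and Itih5 turned to -0.01 without Postn-Cre control HK3 and -0.09 without Tcf21-Cre control HK6. The cause was not tested. No paired analysis was possible because the groups compared share fewer than 2 library numbers, and these numbers name libraries only. The lone library of a group was assumed to vary like the other group.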
